A study of Mus musculus with 3 samples.

Results

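Alcohol dehydrogenases, aldehyde dehydrogenases, aldo-keto reductases and carbonyl reductases were examined in RNA sequencing of mouse intestinal epithelium. They were taken as all genes whose symbol starts with Adh, Aldh, Akr or Cbr followed by a digit, with names marked as pseudogenes left out. This gave 47 of 24346 genes listed. Epithelial cells had been released with EDTA from the large intestine and from a lower and an upper part of the small intestine, and each of these 3 regions gave 1 library. The labels give no age, no treatment and no number of animals. A strain entry is attached to the upper small intestinal library alone and describes MC38, a mouse colorectal cancer model, and in comparisons with it region cannot be told apart from strain. With 1 library per region no difference has a replicate check, no p-value was computed, and all values describe these libraries.

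These enzymes interconvert alcohols, aldehydes or ketones, and carboxylic acids with the help of NAD or NADP. Alcohol dehydrogenases oxidise alcohols such as ethanol and retinol to aldehydes. Aldehyde dehydrogenases oxidise aldehydes to acids, among them acetaldehyde, retinaldehyde, fatty aldehydes and intermediates of amino acid breakdown. Aldo-keto reductases and carbonyl reductases mostly run the other way and reduce sugars, steroids, prostaglandins and reactive carbonyls. In the gut epithelium they handle dietary and microbial alcohols and aldehydes, xenobiotics and vitamin A.

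Levels are in FPKM, the fragments counted for a gene corrected for transcript length and library size, and where 3 values stand together the first is the large intestine, the next the lower and the last the upper small intestine. Differences are on the scale of log2(FPKM + 1). Genes at 1 FPKM or more in either library of a comparison count as measured. Where the difference reached 1 in size, a 2-fold ratio of FPKM + 1, a gene was called higher or lower, with no test. The spacing of low values puts about 8.40, 10.9 and 7.30 reads behind each FPKM of a 1 kb transcript in the 3 libraries. The bracketed ranges beside ratios are 95% Clopper-Pearson intervals from the reads implied by this spacing and cover counting error only. Genes given as 0 are said to be listed at 0, because a failed estimate can also appear that way.

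The region labels were checked against their markers. Car1 was at 6414, 0.172 and 0.257 FPKM, the ileal bile acid binding protein gene Fabp6 at 38.3, 7245 and 0.416 FPKM, and Lct, which encodes lactase, at 0.201, 33.4 and 356 FPKM. All 7 epithelial markers were at 1 FPKM or more in each library. Sums of cell type markers differed between libraries. Such a sum can follow how strongly a region expresses a few genes as well as the share of a cell type. The 6 markers of absorptive cells summed to 95.1, 7766 and 14573 FPKM. This list holds none of the 4 large intestine markers, which summed to 7368, 48.9 and 73.2 FPKM. Its sum cannot be read as the share of absorptive cells in the large intestine. The 6 Paneth cell markers summed to 32.8, 17736 and 17510 FPKM. Goblet cell markers, 7 genes, summed to 8393, 7893 and 6307 FPKM. Among them Muc2 was at 1128, 330 and 151 FPKM and Tff3 at 992, 2215 and 1835 FPKM. The 4 T cell markers listed, of 5 fixed, summed to 4.64, 60.9 and 70.002 FPKM. The 6 crypt and cycling markers summed to 71.4, 590.5 and 738 FPKM, of which Olfm4 gave 0.305, 396 and 579 FPKM. In that list Lgr5 was at 3.78, 5.02 and 3.68 FPKM and Mki67 at 26.5, 49.7 and 37.9 FPKM. The 6 enteroendocrine markers summed to 215, 132 and 274 FPKM. Of these, Pyy was at 108, 28.9 and 3.02 FPKM and Cck at 1.58, 9.95 and 62.2 FPKM. The 4 tuft cell markers summed to 3.09, 4.42 and 6.11 FPKM. Hepatocyte and pancreas markers, 5 genes, summed to 250 FPKM in the large intestine, of which Cela1 gave 227, and to 7.87 and 27.3 FPKM in the others. The 5 myeloid markers summed to 2.88, 23.7 and 12.1 FPKM and the 5 stromal markers to 2.29, 5.01 and 3.05 FPKM. The part of cell makeup in the differences below was not tested, and fewer cells of a type and less RNA per cell cannot be told apart in bulk libraries.

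The 47 genes were lowest as a whole in the lower small intestine. Their FPKM summed to 3268, 1905 and 3778, or 0.659%, 0.317% and 0.619% of each library's sum without short RNA genes. The order of the large and upper libraries depended on the scale, since rescaling each library to the same sum gave 3887 and 3381 FPKM for them and 1829 FPKM for the lower library. Of the 47 genes, 35 reached 1 FPKM in at least 1 library and 28 reached it in all 3. Among the 35, 15 were lowest in the lower library, 13 in the large and 5 in the upper, and 2, Akr1b3 and Akr1c18, had the lower and upper libraries tied as lowest, while 18 were highest in the large, 16 in the upper and 1, Aldh1b1, in the lower library. Such counts were not made over all genes, so this split cannot be called particular to the family. The most abundant gene was a different one in each region. It was Adh1 in the large intestine with 23.7% of the summed FPKM, Aldh1b1 in the lower small intestine with 25.9% and Adh6a in the upper small intestine with 16.7%.

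**Figure D1:**
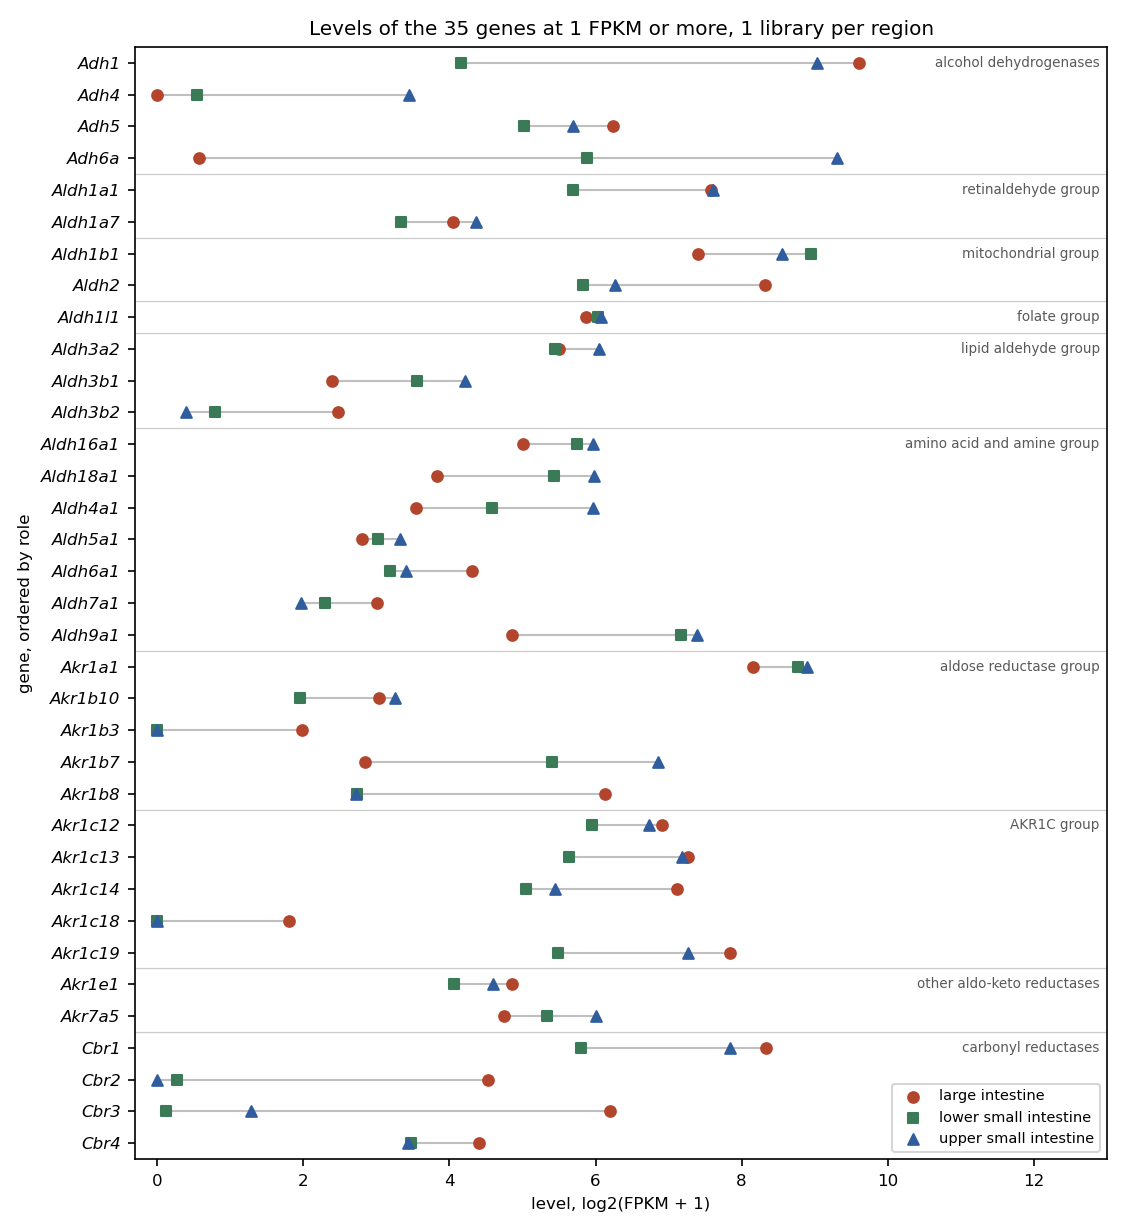
Level of each of the 35 genes that reached 1 FPKM in any library, on the horizontal axis as log2(FPKM + 1), with 1 point per region and genes ordered by role on the vertical axis. The grey line joins the lowest and highest library; Adh6a and Cbr3 show wide gaps and Aldh1l1 a narrow one, from 57.4 to 66.4 FPKM.

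Between the 2 parts of the small intestine, the called differences of these genes ran in 1 direction. Of 31 measured, 12 were higher in the upper than in the lower part, where 3.92% of 11941 measured genes were higher, and 0 were lower, where 2.92% were. In either direction 6.84% of all measured genes were called. The median difference of the 31 was 0.66, beside -0.03 over all measured genes. Between the large and the lower small intestine, 16 of 34 measured were higher in the large intestine and 7 lower, where 9.75% and 10.5% of 12376 measured genes were, 20.2% together. The median was 0.94, beside 0.00 over all genes. Between the large and the upper small intestine the counts were balanced, with 9 of 35 higher and 9 lower, where 11.2% and 11.7% of 12350 measured genes were, 22.9% together. The median there was 0.07. Rescaling to the same sum moved the median of all genes to 0.37 in this comparison, to 0.28 for large minus lower and to -0.12 for upper minus lower. It changed the split of large against upper to 11 higher and 7 lower, of large against lower to 19 and 5, and of upper against lower to 11 and 0. The shares of all measured genes tilted the same way against the large intestine's partners. They became 17.8% higher and 8.01% lower for large against upper, and 14.2% and 8.01% for large against lower. Genes under 1 FPKM in both libraries cannot be called, so these counts describe the measured genes and not all 47. Over all 47, without that filter, the medians were 0.30 for upper minus lower, 0.15 for large minus lower and 0 for large minus upper, and with a filter of 5 FPKM that of large minus upper was -0.12. The 3 comparisons share libraries and are not independent of each other. They combined into a few patterns. Cbr3, Cbr2, Akr1b8, Akr1b3, Akr1c14, Akr1c18, Aldh2 and Aldh3b2, 8 genes, were higher in the large intestine than in both small intestinal libraries. Adh6a, Akr1b7, Aldh4a1, Aldh18a1, Aldh1b1, Aldh3b1 and Aldh9a1, 7 genes, were lower there than in both. Another set of 7, Adh1, Aldh1a1, Akr1b10, Akr1c13, Akr1c19, Cbr1 and Cbr3, was lower in the lower small intestine than in both other libraries. The shares of all measured genes with these combined patterns were not computed. These 3 sets therefore describe the genes named and cannot be called more frequent here than elsewhere. Rescaling to the same sum left 4 of the 7 lower in the large intestine, without Aldh1b1, Aldh3b1 and Aldh4a1, and a pseudocount of 5 left 5 of the 8 higher there, without Akr1b3, Akr1c18 and Aldh3b2. With that pseudocount the upper minus lower differences of Akr1b10 and Cbr3 were 0.78 and 0.34. Neither was called, so both then left the set lower in the lower small intestine.

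**Figure D2:**
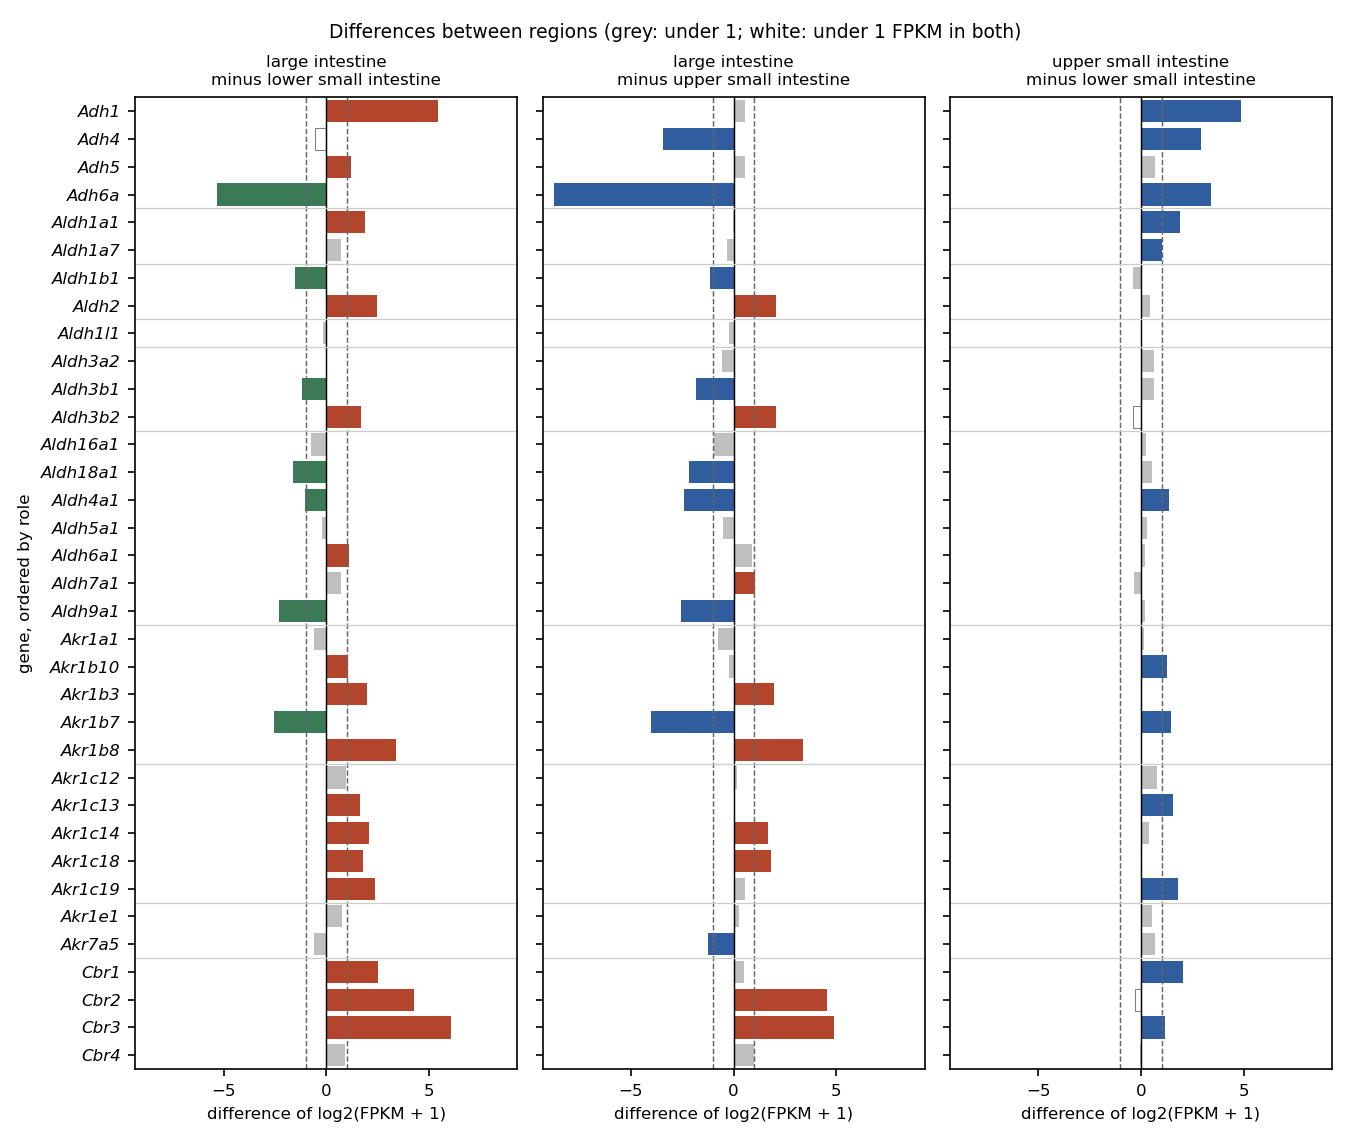
Difference of log2(FPKM + 1) on the horizontal axis for the 35 genes in the 3 comparisons, with dashed lines at -1 and 1 and colour by the region in which a called gene was higher. In the panel of upper minus lower small intestine every coloured bar points to the upper part, and in the other panels bars point both ways.

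Alcohol dehydrogenase genes lie side by side on chromosome 3, from 138217760 to 138455499 (GRCm38, the assembly of mm10), all on the plus strand in the order Adh7, Adh1, Adh6a, Adh4, Adh5. The 2 most abundant of them, which are neighbours, had different regional patterns. Adh1 encodes the class I enzyme that oxidises ethanol and retinol, and was at 775, 16.9 and 524 FPKM. By level it ranked 116 among all genes of the large library, 4557 in the lower library and 207 in the upper library. The large to lower ratio was 45.8 (40.6 to 51.8) and the upper to lower ratio 30.9 (27.4 to 35), so the lower small intestine lay far below the regions on either side of it. Large and upper libraries differed by a ratio of 1.48 (1.43 to 1.53), beyond counting error and under the rule of size.

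Adh6a, a class V enzyme whose substrates are poorly known, was at 0.481, 58.0 and 629 FPKM. It was nearly absent from the large intestine, where its level rests on about 5.42 reads, and highest in the upper small intestine. The lower to large ratio was 121 (55.8 to 404) and the upper to lower ratio 10.8 (10.1 to 11.7). Within a library the comparison of both genes does not depend on the scale between libraries. Adh1 stood at 1612 times the FPKM of Adh6a in the large intestine, 0.292 times in the lower and 0.832 times in the upper small intestine. It held 91.2% of the summed FPKM of alcohol dehydrogenases in the large intestine, whereas Adh6a held 54.3% and 51.8% in the lower and upper small intestine.

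The other genes of the cluster had lower peak levels. Adh5, the class III enzyme that oxidises the glutathione adduct of formaldehyde, was at 74.2, 31.3 and 50.6 FPKM, with a called difference between large and lower at a ratio of 2.37 (2.13 to 2.63). Adh4, a class II enzyme best known from liver, was listed at 0 in the large intestine and was at 0.457 and 9.89 FPKM in the lower and upper small intestine. Adh7, the class IV enzyme of the upper digestive tract, stayed under 1 FPKM at 0.408, 0 and 0.805 FPKM.

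The 250 bases before the RefSeq starts of Adh1 (chr3:138277335-138277584) and Adh6a (chr3:138313036-138313285), both on the plus strand of GRCm38.p6, are shown because these neighbours differ in regional pattern. Capitals mark matches on either strand to 5 short motifs chosen with the levels known. The GATA type is spelled AGATAA, the CDX type is spelled CATAAA, the HNF4 type core is spelled CAAAGT, the HNF1 type is spelled GTTAAT and the core bound by NRF2 is spelled TGACNNNGC, and matches did not overlap in the stretches printed.
Adh1: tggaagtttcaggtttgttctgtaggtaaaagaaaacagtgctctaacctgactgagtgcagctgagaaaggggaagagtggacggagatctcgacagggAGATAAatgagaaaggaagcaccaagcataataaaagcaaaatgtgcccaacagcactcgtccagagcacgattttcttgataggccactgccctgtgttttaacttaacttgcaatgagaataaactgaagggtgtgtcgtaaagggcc
Adh6a: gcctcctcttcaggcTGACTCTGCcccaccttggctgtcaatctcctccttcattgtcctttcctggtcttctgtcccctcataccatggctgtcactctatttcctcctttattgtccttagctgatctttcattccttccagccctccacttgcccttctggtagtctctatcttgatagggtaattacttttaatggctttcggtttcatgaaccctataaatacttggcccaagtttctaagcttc
The stretch before Adh1 holds 1 match, to the GATA type, starting 150 bases before the start, and that before Adh6a holds 1, to the NRF2 core, at 235 bases. Among 32851 RefSeq promoters of the same length, 9.99% hold the GATA type and 10.2% the NRF2 core. RefSeq promoters were matched for 39 of the 47 genes. These are matches of letters and do not show that a factor binds.

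Retinaldehyde dehydrogenase genes of the Aldh1a type make retinoic acid, the active form of vitamin A. Aldh1a1 was at 190 FPKM in the large intestine, 50.8 FPKM in the lower and 194 FPKM in the upper small intestine. It was thus lower in the lower small intestine, with an upper to lower ratio of 3.82 (3.43 to 4.27) and a large to lower ratio of 3.73 (3.35 to 4.16). No difference between large and upper libraries was detectable at this depth, at a ratio of 0.976 (0.901 to 1.06). Its neighbour Aldh1a7, a close copy on the same part of chromosome 19, was at 15.5, 9.07 and 19.5 FPKM, with the lower library again lowest. Its upper minus lower difference of 1.03 was called and became 0.93, not called, under rescaling to the same sum. Aldh1a7 shares 7.49% of its 50-base stretches with Aldh1a1, so part of its reads may come from that gene. Aldh1a2 and Aldh1a3, the other retinaldehyde dehydrogenases, stayed at or under 0.171 FPKM in all libraries. Aldh1a1 therefore held between 84.4% and 92.3% of the summed FPKM of this group.

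Mitochondrial acetaldehyde oxidation is served by Aldh2, the main enzyme for acetaldehyde, and by Aldh1b1, a related mitochondrial enzyme. These changed places between large and small intestine. Aldh2 was at 318, 55.7 and 76.2 FPKM, with large to lower and large to upper ratios of 5.71 (5.10 to 6.39) and 4.17 (3.71 to 4.70). Aldh1b1 was at 169, 493 and 374 FPKM, with lower to large and upper to large ratios of 2.92 (2.68 to 3.20) and 2.21 (2.01 to 2.44). Aldh2 made up 65.4% of the FPKM of both genes in the large intestine and 10.2% and 16.9% in the lower and upper small intestine. The sum of both differed less, at 487, 549 and 450 FPKM. Under rescaling to the same sum the difference of Aldh1b1 between large and upper libraries shrank from -1.14 to -0.73 and was no longer called. The exchange within each library is not touched by scaling.

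Of the folate enzymes, Aldh1l1, which oxidises formyltetrahydrofolate in the cytosol, was at 57.4, 64.3 and 66.4 FPKM and was called in no comparison. All 3 ratios had intervals that include 1, with reads implied from its shortest coding transcript of 556 nt. Its longest has 4175 nt, which would imply more reads and narrower intervals, so small differences beyond counting error remain possible. Its mitochondrial counterpart Aldh1l2 stayed at or under 0.674 FPKM. Among enzymes of lipid aldehydes, Aldh3a2, the fatty aldehyde dehydrogenase of the endoplasmic reticulum, was at 44.2, 42.5 and 65.4 FPKM and was called in no comparison. Aldh3b1 and Aldh3b2, which lie within 68.2 kb of each other on chromosome 19, differed in opposite directions. Aldh3b1 was at 4.23, 10.8 and 17.6 FPKM and was lower in the large intestine than in both other libraries. Aldh3b2 was at 4.58, 0.732 and 0.321 FPKM and was higher there, with a large to lower ratio of 6.25 (3.69 to 11.3). Both are low, and with a pseudocount of 5 neither Aldh3b2 difference nor that of Aldh3b1 from the lower library was called. The latter, -1.18, became -0.92 under rescaling to the same sum. Aldh3b2 shares 24.2% of its 50-base stretches with other genes, mostly Aldh3b3. Aldh3b3, in the same cluster, stayed at or under 0.122 FPKM.

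Aldehyde dehydrogenases of amino acid, proline and amine metabolism included more genes called lower than called higher in the large intestine. Of 7 measured among 8, 3 were lower and 1 higher against the lower part, beside 10.5% and 9.75% of all measured genes. The counts were the same against the upper part, beside 11.7% and 11.2%. These counts are small, and 1 of the 3 lower genes, Aldh4a1, is uncertain in level, as described below. Aldh9a1, which acts in carnitine synthesis, showed the widest gap of them, at 27.9, 143 and 167 FPKM, with an upper to large ratio of 5.99 (5.51 to 6.51). Proline metabolism has an enzyme of this family in each direction. Aldh18a1, which makes the pyrroline carboxylate used for proline, ornithine and citrulline, was at 13.2, 42.4 and 62.2 FPKM. Aldh4a1, which oxidises the same intermediate to glutamate in mitochondria, was at 10.6, 22.9 and 61.4 FPKM. Both were lower in the large intestine than in both other libraries, and Aldh4a1 was also higher in the upper than in the lower small intestine at a ratio of 2.68 (2.46 to 2.92). Its large minus lower difference of -1.04 became -0.76 under rescaling to the same sum and was then not called. Aldh4a1 shares 45.0% of its 50-base stretches with Gm21969, an annotated gene on the same strand that overlaps it, so its level is uncertain.

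Aldh6a1 and Aldh7a1 had their highest level in the large intestine, and Aldh5a1 and Aldh16a1 their lowest. Aldh6a1, the methylmalonate semialdehyde dehydrogenase of valine breakdown, was at 18.8, 8.15 and 9.64 FPKM and was called higher in the large library than in the lower at a ratio of 2.31 (1.55 to 3.43). With a pseudocount of 5 this difference was 0.86 and not called. The opposite-strand gene Bbof1 overlaps 18.6% of the exonic bases of Aldh6a1. Aldh7a1, of lysine breakdown, was at 7.04, 3.92 and 2.92 FPKM and was called in 1 comparison, higher in the large than in the upper part, narrowly at 1.03. Aldh5a1, which oxidises succinic semialdehyde from GABA, was at 5.95, 7.14 and 8.996 FPKM and was called in no comparison. Aldh16a1, for which no role is given here, was at 31.0, 52.7 and 61.6 FPKM and missed the rule against the upper part at -0.97. Aldh8a1 was listed at 0 in all libraries.

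Akr1a1, a widely expressed aldehyde reductase, was abundant in every library, at 285, 435 and 477 FPKM, and was called in no comparison. The Akr1b genes, relatives of aldose reductase, were not even. They lie on chromosome 6 from 34302434 to 34423142 in the order Akr1b3, Akr1b8, Akr1b10, Akr1b7. Akr1b8, which reduces reactive aldehydes and retinaldehyde, was at 68.7, 5.67 and 5.61 FPKM, with large to lower and large to upper ratios of 12.1 (9.68 to 15.4) and 12.3 (9.27 to 16.2). The lower and upper libraries did not differ detectably for it, at an upper to lower ratio of 0.989 (0.699 to 1.42).

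Akr1b7, first known as a vas deferens protein and able to reduce aldehydes from lipid oxidation, had the reverse pattern at 6.19, 41.4 and 114 FPKM. The lower to large ratio was 6.69 (5.15 to 8.69), the upper to large ratio 18.5 (14.4 to 23.9) and the upper to lower ratio 2.77 (2.50 to 3.07). Of the summed FPKM of the 4 Akr1b genes, Akr1b8 held 80.8% in the large intestine, while Akr1b7 held 82.8% in the lower library and 89.0% in the upper. Akr1b10, between them on the chromosome, was at 7.22, 2.89 and 8.53 FPKM, lowest in the lower small intestine. Over 27.2% of its exonic bases Akr1b7 is overlapped by the opposite-strand gene Gm13857, and the strand setting of the counting is not given in the sources used here.

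Upstream stretches of 250 bases are shown for Akr1b8 (chr6:34353896-34354145) and Akr1b7 (chr6:34412112-34412361), plus strand, RefSeq on GRCm38.p6, as a pair of 1 cluster with opposite regional patterns. Capitals again mark matches to the 5 motifs.
Akr1b8: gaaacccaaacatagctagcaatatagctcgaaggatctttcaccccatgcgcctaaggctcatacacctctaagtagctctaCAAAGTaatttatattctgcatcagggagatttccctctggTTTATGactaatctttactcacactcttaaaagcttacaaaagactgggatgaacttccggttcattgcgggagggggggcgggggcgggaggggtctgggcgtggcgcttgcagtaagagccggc
Akr1b7: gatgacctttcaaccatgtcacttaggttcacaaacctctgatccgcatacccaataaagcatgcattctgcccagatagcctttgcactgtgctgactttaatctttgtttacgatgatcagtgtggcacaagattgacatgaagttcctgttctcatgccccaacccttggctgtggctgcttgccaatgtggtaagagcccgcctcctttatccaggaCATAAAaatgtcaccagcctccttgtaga
Both stretches hold a CDX type match, 126 bases before the start of Akr1b8 and 29 bases before that of Akr1b7, so this match does not separate the pair. Akr1b8 also holds an HNF4 type core at 167 bases. The CDX type occurs in 10.8% and the HNF4 type core in 12.6% of all promoters of this length. Over the 42 promoters matched to these genes the CDX type was found in 7.

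Akr1b3, the aldose reductase of the polyol pathway, reached 2.94 FPKM in the large intestine against 0.001 FPKM in both small intestinal libraries, and is counted above as higher there. This value is doubtful. Of its 50-base stretches, 59.9% also occur in transcripts of other genes, and 56.2% occur in those of 1 such gene, Gm6644, which was listed at 61.3, 30.8 and 25.1 FPKM. How the reads were divided between both is not given in the sources used here, and the level of Akr1b3 cannot be told apart from that of Gm6644.

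**Figure D3:**
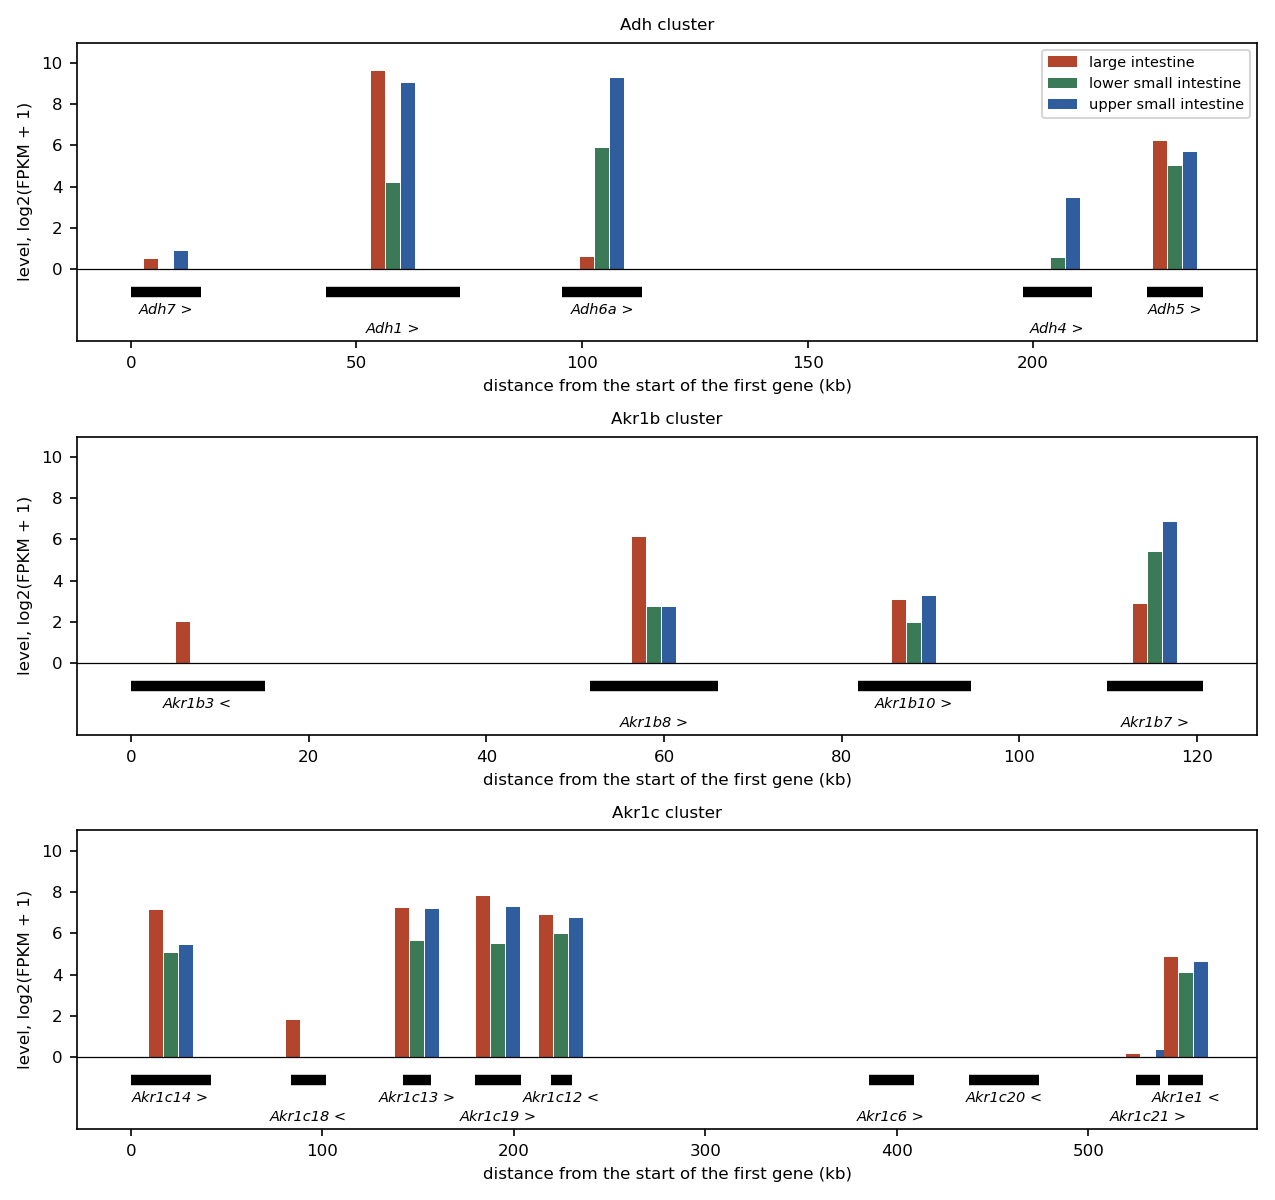
Levels as log2(FPKM + 1) on the vertical axis for the genes of the Adh, Akr1b and Akr1c clusters, placed by distance in kb from the start of the first gene on the horizontal axis, with 1 bar per region, black bars for gene bodies and > or < for strand. Adh1 and Adh6a, and Akr1b8 and Akr1b7, show opposite orders of large intestine and lower small intestine within 1 cluster.

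The Akr1c genes encode hydroxysteroid dehydrogenases and related reductases, and all but Akr1cl lie on chromosome 13 from 4049011 to 4586541, followed by Akr1e1. Of 9 genes, 5 were measured, and all 5 were lowest, or shared the lowest value, in the lower small intestine. Akr1c19 was at 228, 43.6 and 153 FPKM, Akr1c13 at 152, 48.6 and 145 FPKM and Akr1c12 at 119, 61.1 and 106 FPKM. Akr1c19 and Akr1c13 were called lower in the lower small intestine than in both other libraries, and Akr1c12 missed the rule in both cases, at 0.95 and 0.78. Akr1c12 and Akr1c13 share 28.6% of their 50-base stretches with each other, so the split of reads between them is uncertain.

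Akr1c14, which inactivates androgens as a hydroxysteroid dehydrogenase, differed from these neighbours. It was at 138, 32.0 and 42.7 FPKM, higher in the large intestine than in both parts of the small intestine. The large to lower ratio was 4.31 (3.99 to 4.66), and the large to upper ratio 3.23 (2.98 to 3.50). Within the large intestine Akr1c14 stood at 1.16 times the FPKM of Akr1c12, and at 0.524 and 0.405 times in the lower and upper small intestine. Akr1c18, which inactivates progesterone, reached 2.49 FPKM in the large intestine and was listed at 0 in both small intestinal libraries. Akr1c6 and Akr1c20 were listed at 0 throughout, and Akr1c21 stayed at or under 0.251 FPKM.

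Of the remaining aldo-keto reductases 2 were measured, and 1 of them was called. Akr1e1, a reductase of anhydrofructose at the end of the same cluster, was at 28.0, 15.7 and 23.1 FPKM and was called in no comparison. Akr7a5, which reduces aflatoxin dialdehyde and succinic semialdehyde, was at 25.9, 39.3 and 63.3 FPKM and was lower in the large than in the upper small intestine, at a difference of -1.26 that became -0.86 and was not called under rescaling to the same sum. Akr1d1, the steroid reductase of bile acid synthesis in liver, reached 0.044 FPKM at most. Akr1cl and Aldh3a1 were listed at 0 in all libraries.

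All 4 carbonyl reductase genes had their highest value in the large intestine. Cbr1, the main cytosolic carbonyl reductase of quinones and prostaglandins, was at 322, 54.7 and 227 FPKM. It was lower in the lower small intestine than in both others, with a large to lower ratio of 5.88 (5.25 to 6.63) and an upper to lower ratio of 4.15 (3.68 to 4.71). Cbr3, a close relative 77.4 kb further along chromosome 16, was at 72.1, 0.088 and 1.44 FPKM. The large to upper ratio of Cbr3 was 50.1 (29.2 to 99.8), and the value in the lower small intestine rests on about 1 read, which leaves its large to lower ratio of 819 with an interval from 165 upward. Cbr1 was thus at 4.46 times the FPKM of Cbr3 in the large intestine and at 158 times in the upper small intestine.

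Cbr2, a carbonyl reductase best known from lung mitochondria, was at 22.1 and 0.207 FPKM in the large and lower small intestine and listed at 0 in the upper. Markers of muscle, 4 genes with Acta2 and Des at 0 in the large intestine, summed to 7.85, 2.78 and 1.75 FPKM. Nearly all of this came from Tagln, at 7.83, 2.56 and 1.64 FPKM. The sum of hepatocyte and pancreas markers was also highest in the large intestine, mostly through Cela1 at 227 FPKM, with Prss2 and Cpa1 at 0 there. The 4 endothelial markers summed to 1.72, 1.52 and 1.05 FPKM, with Cdh5 and Kdr at 0 in the large intestine. The part of such cells in the level of Cbr2 was not tested. Of its 50-base stretches, 15.1% also occur in Gm11771. Cbr4, a mitochondrial quinone reductase that also takes part in fatty acid synthesis there, was at 20.2, 10.1 and 9.82 FPKM. It missed the rule at 0.93 and 0.97, although intervals of both ratios, 1.9996 (1.43 to 2.86) and 2.06 (1.39 to 3.09), exclude 1. Under rescaling to the same sum both differences were called, at 1.23 and 1.35.

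**Figure D4:**
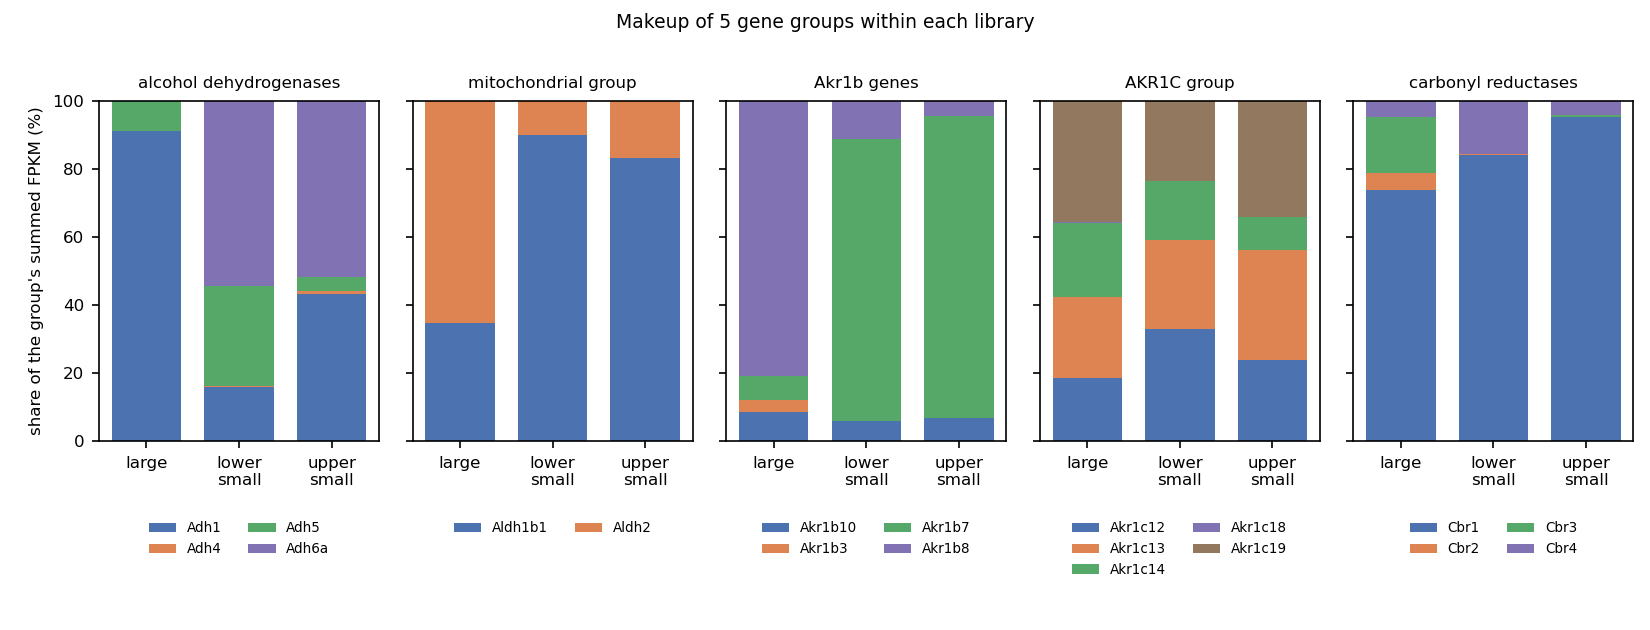
Share of each gene in the summed FPKM of its group, in percent on the vertical axis, for 5 gene groups, with 1 stacked bar per region on the horizontal axis. Aldh2 and Aldh1b1, and Akr1b8 and Akr1b7, change places between the large intestine and both small intestinal libraries, and Adh1 holds 91.2% of its group in the large intestine and 43.1% in the upper small intestine.

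Other genes of the same pathways were described from 5 lists. The counts of all 5 are to be read against the shares of all measured genes, which were 9.75% higher and 10.5% lower for large against lower, 11.2% and 11.7% for large against upper, and 3.92% and 2.92% for upper against lower. The first held 6 genes of acetate use and of ethanol oxidation by other enzymes. Between large and lower small intestine 2 of 5 measured were higher and 0 lower, between large and upper 2 of 5 higher and 1 lower, and between upper and lower 1 of 4 higher and 0 lower. Acss2, which turns acetate into acetyl-CoA in the cytosol, was at 73.6, 19.3 and 21.0 FPKM, and its mitochondrial counterpart Acss1 at 40.4, 25.8 and 21.7 FPKM. Cat, encoding catalase, was at 46.4, 43.7 and 139 FPKM, highest in the upper small intestine.

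Retinol and retinal oxidoreductases and genes of retinoic acid turnover formed a list of 24, of which the files held 22. Of 12 measured, the large intestine had 2 higher and 1 lower against the lower part, then 3 higher and 2 lower against the upper part. Of 10 measured between upper and lower part, 1 was higher and 0 lower. With 12 or 10 genes measured, counts of 1 to 3 are too few to set apart from the shares over all genes. Rdh7, a retinol dehydrogenase, was at 0.161, 3.98 and 66.0 FPKM, the same order of libraries as for Adh6a. Dhrs4, which reduces retinal and other carbonyls, was at 34.8, 41.7 and 77.3 FPKM. Dhrs3, a retinaldehyde reductase, was at 25.8, 15.1 and 27.5 FPKM and was called in no comparison.

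A list of other short-chain dehydrogenases and reductases held 27 genes, of which the files held 26. Among 21 measured, the large intestine had 7 higher and 1 lower against the lower part, then 5 higher and 5 lower against the upper part. Among 19 measured, 5 were higher and 1 lower in the upper than in the lower small intestine, where 3.92% and 2.92% of all genes were. Hpgd, which inactivates prostaglandins, was at 182, 54.95 and 129 FPKM, lowest in the lower small intestine as Cbr1 was. Dhrs11 was at 88.1, 166 and 198 FPKM and Dhrs1 at 25.1, 29.1 and 191 FPKM, both highest in the upper small intestine.

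Target genes of NRF2, the factor of the response to electrophiles, numbered 15, and 14 were measured in each comparison. The large intestine had 4 higher and 2 lower against the lower part, then 2 higher and 0 lower against the upper part, and the upper part had 2 higher and 1 lower against the lower. Beside the 11.2% and 11.7% over all genes, 2 and 0 of 14 against the upper part set nothing apart. Ugdh, which makes UDP-glucuronate, was at 432, 79.3 and 186 FPKM, lowest in the lower small intestine. Taldo1 and Tkt of the pentose phosphate pathway were at 204, 318 and 285 FPKM and at 117, 188 and 178 FPKM, and neither was called. Of 5 molybdenum hydroxylases, which oxidise aldehydes by another chemistry, Xdh alone was measured, at 21.3, 123 and 217 FPKM, lower in the large intestine than in both other libraries. The aldehyde oxidase genes Aox1 and Aox2 stayed at or under 0.024 FPKM.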

How the data were processed

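RNA of epithelial cells from 3 gut regions, 1 library each, was extracted with an RNeasy kit and sequenced from TruSeq stranded mRNA libraries, per the labels' protocols. Values deposited for each gene were read as FPKM made by the authors. This unit was inferred, because the file headers give none, while the list of tools per the submitters' processing notes includes Cufflinks 2.2.1, which writes FPKM. Bowtie2 2.2.3, SAMtools 0.1.19, TopHat2 2.0.13 and the build mm10 are named there too. Read length, filters, annotation and strand setting are each not given in the sources used here. Medians of the ratios to the geometric mean of the 3 libraries were 1.00, 1.01 and 0.999, so the values share a scale by a step not stated.

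Samples were grouped by title. Differences, calls and lists were computed in Python 3.11.15 with pandas 2.3.3, with a pseudocount of 1 and the 1 FPKM filter. No test fits 1 library per region. The calling step was tested on simulated data. The spacing of low values, from genes with 1 transcript of at least 1500 nt, put 69.3%, 71.9% and 71.0% of 414, 409 and 411 values within 0.15 of a whole read. Reads per gene were implied from the shortest coding transcript of GENCODE M21, which matched all 47 genes. Where a gene also has longer coding transcripts, its reads may be more than implied and its intervals too wide. Recovery was too incomplete for a count test, and such reads carry no molecular identifiers, so they are not independent molecules.

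Shared sequence was the share of 50-base stretches of the longest coding transcript found in transcripts of another gene, where the length is a choice made here. Genes within 500 kb form a cluster. Every gene of the family at 1 FPKM or more in any library is named, and of each pathway list up to 3 genes of highest level are. The genes and lists were chosen with earlier results of these data known, and 1 marker list is not reported here. Alternatives were pseudocounts of 0.1 and 5, no filter and a filter of 5 FPKM, and rescaling to the same sum with and without short RNA genes. Leaving out genes that share sequence, and recomputing the counts against both other libraries, were added after seeing the data.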

Additional observations from a re-analysis of the deposited data

How the results depend on the processing

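Each count of genes called in a single comparison stayed within 1.5 times its main value under all 7 alternatives, with 1 exception. With a pseudocount of 5, 5 genes in place of 9 were higher in the large than in the upper small intestine. The share of all measured genes called higher there also fell, from 11.2% to 5.84%. Of counts against both other libraries, recomputed after seeing the data, the 8 genes higher in the large intestine became 5 with a pseudocount of 5, with a filter of 5 FPKM and without the sharing genes. The 7 lower there became 4 under both rescalings, and the 7 lowest in the lower library varied from 5 to 7. Medians moved more. Large minus lower, 0.94, became 0.98 and 0.65 with pseudocounts of 0.1 and 5, 0.15 without a filter, 0.79 with a filter of 5 FPKM, 1.24 and 1.21 when rescaled to the same sum with and without short RNA genes, and 0.75 without the genes that share over 10% of their sequence. In the same order without the pseudocounts, large minus upper, 0.07, became 0, -0.12, 0.48, 0.37 and -0.21, so its sign was not fixed. Upper minus lower, 0.66, became 0.69 and 0.52 with pseudocounts of 0.1 and 5, 0.30 without a filter, 0.56 and 0.63 when rescaled, and 0.58 without the sharing genes. Of single gene differences, none that was called changed sign. Rescaling to the same sum ended 5 calls and added 5, and a pseudocount of 5 ended 14. No paired analysis was possible because each region had 1 library, and no replicate could be left out. Depth limits the ratios of Cbr2, Cbr3 and Adh4, whose low values rest on a few reads or fewer.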
